A study of Rattus norvegicus with 12 samples.

Results

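The insulin-like growth factor (IGF) axis was read in the rat mammary gland through its ligands Igf1 and Igf2, its receptors Igf1r and Igf2r, and the binding protein genes Igfbp2 to Igfbp7. Members were all gene probes whose name in the array annotation was one of these 10 symbols. This gave 13 of the 30367 probes of the array, 3 for the ligands, 2 for the receptors and 8 for the binding proteins, and all 13 were well above background on all 12 arrays and were tested. Lumbar mammary glands of female Wistar offspring were hybridised to 12 arrays. Each array held the RNA of a single rat, and each of the 4 groups had 3 rats. NP rats were born to dams fed 17.0% protein in pregnancy and LP rats to dams fed 8.8% protein in pregnancy. From birth on, all 4 groups shared standard chow and litters reduced to 6 females, and glands were taken at day of life 21, the end of suckling, or day 28. The LP and NP diets were thus fed in pregnancy and not after birth, LP pups were nursed by dams that had been fed the LP diet. By the study's methods several animals of a litter were taken at each day, and the labels do not say which rats were littermates, so that p-values measure the spread between these rats. Whole glands were used after removal of visible lymph nodes, fat pad included, and the RNA is that of mixed cells.

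IGF-1 and IGF-2 are small secreted peptides that resemble insulin. Both signal through the IGF-1 receptor, a tyrosine kinase that drives growth and survival, while the IGF-2 receptor takes up IGF-2 for breakdown in lysosomes. Most IGF in tissue fluid is held by binding proteins, which hold back or prolong its action until proteases cut them. In the growing mammary gland, growth hormone acts on the stroma to raise local IGF-1, which drives duct elongation together with oestrogen, and Igf2 is an imprinted gene with high fetal expression.

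A level below is the log2 processed signal of a probe minus the 75th percentile of its array, so that 0 is the signal of that percentile. Levels of different probes are not set against each other. The 75th percentile signal itself was between 1451 and 2369.6, between 74.8% and 79.6% of gene spots were well above background, and no spot was saturated. All day 21 arrays shared 1 slide and all day 28 arrays another. An effect of the day therefore cannot be told apart from that of the slide, whereas LP and NP were compared within a slide. Diet was tied to the place on the slide, however: on both slides all 3 NP arrays lay in row 1 and 2 of 3 LP arrays in row 2. With slide row as covariate, the probes with an unadjusted p under 0.05 between the diets were 2.26% at day 21, 3.6% at day 28 and 3.26% over both days, against 4.36%, 8.07% and 11.9% without it. Only the LP rats 4a of day 21 and 4f of day 28 shared a row with NP rats. With the covariate the diet comparison rests mainly on these LP rats, so lower shares can follow with or without a row effect. The shares therefore cannot tell whether the row played a part. The part of the row in the diet differences was not tested for single members beyond this covariate.

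Markers of mammary tissue passed the background filter, as did those of other tissues. The lymphocyte, muscle and liver lists had 8 of 8 genes tested as well, so this count does not tell 1 tissue from another. Of the luminal markers 8 of 8 were tested, with Krt18 (a keratin of luminal cells) as its brightest probe, of the basal markers 8 of 8, and of the adipocyte markers 7 of 8, with Cfd (adipsin) as the brightest. A pair of arrays stood apart. On the array of NP rat 4f at day 28 the mean level of 7 proliferation markers was -2.24, against -0.70 to -0.01 on the other arrays, and the mean of the basal markers was -1.74, against -1.07 to 0.67. On the array of LP rat 6a at day 21 the mean of 8 lymphocyte markers was -5.38, against -1.03 to 0.16 on the others, and the T-cell gene Cd3d was at -3.04, against 1.98 to 3.36. For several members and marker lists whose difference moved by much when either array was left out, the value without it is given as well.

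The probes of a ligand, a receptor and a pair of binding proteins show what the array measured. Each is printed 5′ to 3′ as deposited, with its rn4 position, and the capitals in the Igfbp2 probe mark a stop codon. All 4 hold an open sense reading frame and were taken as coding sequence from the peptides these frames spell, with no genome annotation used.
Igf1, A_64_P052740, chr7:24587916-24587975, plus strand: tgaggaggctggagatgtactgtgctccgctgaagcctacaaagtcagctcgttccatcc
Igf1r, A_44_P474037, chr1:122989150-122989209, plus strand: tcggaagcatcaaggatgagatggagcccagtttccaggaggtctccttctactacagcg
Igfbp2, A_64_P032415, chr9:71993843-71993902, plus strand: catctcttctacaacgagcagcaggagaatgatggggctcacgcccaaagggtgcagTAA
Igfbp6, A_44_P378799, chr7:140888422-140888481, plus strand: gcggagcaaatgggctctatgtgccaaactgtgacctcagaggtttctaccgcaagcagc

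Igf2 was the member that changed. It was read by 1 probe, A_44_P1037953, on 2 spots at chr1:202906641-202906700 on the minus strand of rn4. The probe does not tell which promoter an Igf2 transcript came from, and RefSeq lists 2 Igf2 starts in the promoter table of GRCr8. The 250 bases before each start are printed because Igf2 carries the result, with CG dinucleotides in capitals, first the upstream start (chr1:207253981-207254230, minus strand) and then the downstream start (chr1:207250476-207250725, minus strand).
Igf2, upstream start: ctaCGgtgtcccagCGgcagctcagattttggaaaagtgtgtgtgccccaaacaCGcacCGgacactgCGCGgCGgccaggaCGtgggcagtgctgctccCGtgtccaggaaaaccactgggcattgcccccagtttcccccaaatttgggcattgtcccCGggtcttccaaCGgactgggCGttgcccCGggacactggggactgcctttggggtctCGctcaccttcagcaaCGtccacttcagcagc
Igf2, downstream start: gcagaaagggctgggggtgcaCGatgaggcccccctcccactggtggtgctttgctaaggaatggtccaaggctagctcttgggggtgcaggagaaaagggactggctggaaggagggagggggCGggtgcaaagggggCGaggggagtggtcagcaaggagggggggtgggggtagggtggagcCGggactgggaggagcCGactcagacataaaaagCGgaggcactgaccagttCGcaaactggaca
The upstream window holds 15 CG dinucleotides and the downstream window 7, and the median of all 33469 RefSeq promoter windows of this length is 5. Both strands were searched for the letters of a GC box, GGGCGG. They were also searched for the letters of a TATA box, TATAAA. The last search was for a box named by its letters, CCAAT. No match of one overlapped that of another. The downstream window holds 1 GC box, from position -129 relative to the start, and the upstream window none, and neither holds the TATA or CCAAT letters. Of all windows, 30.5% hold a GC box, 12.9% a TATA box and 34.0% a CCAAT box, and a match is a description of letters only.

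At day 21 the Igf2 level was 3.17, 3.05 and 3.54 in NP rats 4a, 5a and 6a. In LP rats 4a, 6a and 7c of that day it was 3.16, 3.58 and 4.49. The day 28 levels were 1.28, 0.81 and 2.23 in NP rats 4f, 5f and 6f, and 0.91, 0.79 and 1.07 in LP rats 4f, 6f and 7f. All 6 rats of day 28 lay below all 6 rats of day 21, and the diets overlapped at both days. Averaged over both diets, Igf2 fell by 2.31 on the log2 scale (SE 0.27, limma with Benjamini-Hochberg adjustment, adjusted p = 0.0055), which is 4.97-fold (95% interval 3.27 to 7.57). This was the only call among the 13 member probes in that comparison, in which 1.81% of all tested probes were called, and 3.73% of all tested probes had groups of 6 that did not overlap. Igf2 stood at rank 29 of 23209 by p, and 13 other probes fell by as much or more. Whether fewer cells that express Igf2 or less Igf2 RNA per cell gave this cannot be told apart in whole-gland RNA, nor can day and slide.

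**Figure D1:**
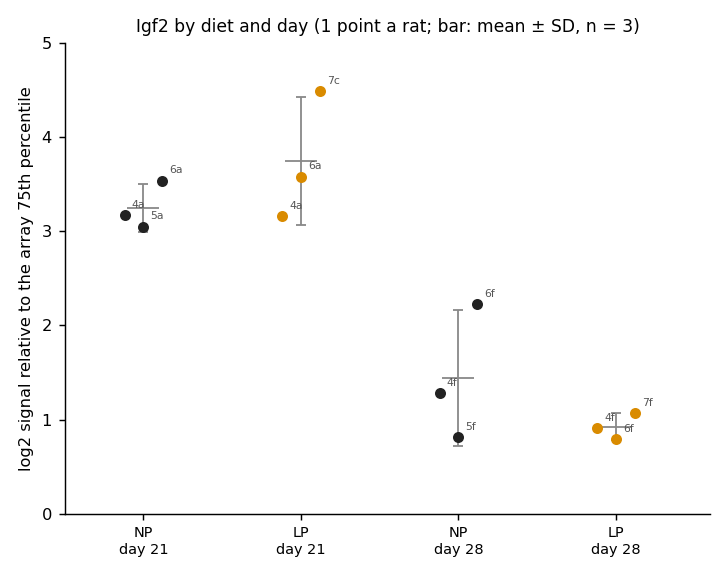
Igf2 level (log2 signal relative to the 75th percentile of the array) in each rat by diet and day, with rat numbers; bars are the mean ± SD of 3 rats. The 6 rats of day 28 sit between 0.79 and 2.23, all below the 6 rats of day 21, which sit between 3.05 and 4.49.

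Within a diet the same difference was large in size and did not pass the adjusted threshold. In NP rats Igf2 was at 3.25 ± 0.25 (SD, n = 3) at day 21 and 1.44 ± 0.72 at day 28, a difference of -1.81 (SE 0.38, limma adjusted p = 0.106, 3.51-fold). In LP rats it was at 3.74 ± 0.68 at day 21 and 0.92 ± 0.14 at day 28, a difference of -2.82 (SE 0.38, limma adjusted p = 0.088, 7.05-fold). With normexp background correction the LP difference was -2.73 and passed (limma adjusted p = 0.043). The difference between days did not differ detectably between the diets: the interaction was -1.01 (SE 0.54, 95% interval -2.22 to 0.21, unadjusted p = 0.095, limma). With 1 array left out the interaction ran from -1.32 (without NP rat 5f) to -0.61 (without NP rat 6f). Over both diets Igf2 was called with each array left out in turn, with a difference between -2.51 and -2.13, and under the 10 other settings fitted to it (limma adjusted p between 0.0033 and 0.033).

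The cell type markers were set beside the Igf2 difference, and the only ones called between the days were Retn of fat cells, higher, and Prom1 of luminal cells, lower. The lists held no red cell genes, but Slc4a1, Alas2 and Hbb (A_44_P306307), of red cells and chosen after their values were seen, fell by 2.21, 1.83 and 1.55 (limma adjusted p = 0.0052 for each). This Hbb probe fell furthest of 6 haemoglobin probes, and the other Hbb probe, A_64_P028036, fell by 0.52 (limma adjusted p = 0.074). Over both diets, the median day difference was -0.06 for 8 fibroblast, -0.20 for 8 endothelial, 0.18 for 7 adipocyte, 0.28 for 8 macrophage, 0.97 for 8 lymphocyte, 0.54 for 8 liver, 0.02 for 8 luminal and -0.25 for 8 basal markers. It was -0.49 for the 7 tested proliferation markers. The lymphocyte median was 0.08 without LP rat 6a, and without NP rat 4f the proliferation median was -0.19 and the adipocyte one 0.11. The basal median was -0.02 without LP rat 6a and 0.05 without NP rat 4f, and the luminal one 0.22 and 0.20 (0.39 without both). With an unadjusted p under 0.05, as for 19.2% of all tested probes, there were 3 of 8 endothelial markers, all lower, 3 of 8 macrophage and 2 of 8 liver markers, all higher, and 1 of 7 proliferation and 1 of 8 luminal markers, lower. Of 7 adipocyte markers 3 had one, Retn and Cfd higher and Lep (leptin) lower. Over the 12 arrays the mean of the endothelial list had the highest correlation with Igf2 of the 10 lists (r = 0.61, and 0.85 over the 10 arrays without both that stood apart, a description). The skeletal muscle list, whose brightest probe was that of Mylpf, had a median of -1.46 (-0.47 without LP rat 6a) with 0 of 8 at an unadjusted p under 0.05, and its mean level ran from -4.44 to 3.32 over the arrays. The mean of the muscle list had r = 0.31 with Igf2 over the 12 arrays, and 0.17 over the 10 arrays without both, a description. On the array of LP rat 6f at day 28 that list was at 2.65, among the highest, and Igf2 was at 0.79, the lowest of the 12 arrays. The part of the cell mixture in the Igf2 difference was not tested.

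Igf1, the ligand that growth hormone induces, differed little between groups. Its probe A_44_P366723 (chr7:24604715-24604774) was at 5.24, 5.23 and 5.23 in the NP rats of day 21 and at 5.07, 5.10 and 5.41 in the LP rats. By day 28 it stood at 4.96, 5.31 and 5.63 in NP rats and at 5.52, 5.62 and 5.51 in LP rats. The LP rats of day 28 lay above the LP rats of day 21, and in the other comparisons of diet or day the groups overlapped. In LP rats the day difference was 0.36 for this probe and 0.38 for A_64_P052740 (unadjusted p = 0.048 for both, limma adjusted p = 0.494 for both), and in NP rats it was 0.06 and -0.01. The pair of Igf1 probes ran together over the arrays (r = 0.95 over 12 arrays, a description, with an SD of 0.07 for their difference).

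Igf1r, the signalling receptor, was at -3.40, -3.45 and -3.11 in NP rats of day 21 and at -3.15, -3.46 and -3.42 in LP rats. The day 28 values were -2.89, -3.53 and -3.32 in NP rats and -3.74, -3.54 and -3.60 in LP rats. All LP rats of day 28 lay below all NP rats, although the highest LP value, in rat 6f, was next to the lowest NP value, in rat 5f. The diet difference at day 28 was -0.38 (SE 0.17, 95% interval -0.76 to -0.00, unadjusted p = 0.0499, limma adjusted p = 0.581). This was the only member probe with an unadjusted p under 0.05 in that comparison, where 8.07% of all tested probes had one, and the only one whose groups did not overlap, as in 16.8% of all tested probes. Without NP rat 4f, which had the highest Igf1r level, the difference was -0.20 (unadjusted p = 0.199, limma). Between the days the Igf1r groups of LP rats did not overlap, with a difference of -0.28 (unadjusted p = 0.127, limma adjusted p = 0.622). The probe sits on 10 spots, whose median SD on an array was 0.08.

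Igf2r, the receptor that clears IGF-2, spanned a narrow range. It was at 2.97, 2.84 and 2.72 in NP and 2.85, 3.096 and 3.01 in LP rats of day 21, and at 2.53, 2.81 and 2.81 in NP and 2.69, 2.70 and 2.75 in LP rats of day 28. Over both diets it was 0.20 lower at day 28 (difference -0.20, SE 0.08, unadjusted p = 0.031, limma adjusted p = 0.212). In LP rats the difference was -0.27 with groups that did not overlap (unadjusted p = 0.037, limma adjusted p = 0.465), and in NP rats it was -0.13.

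**Figure D2:**
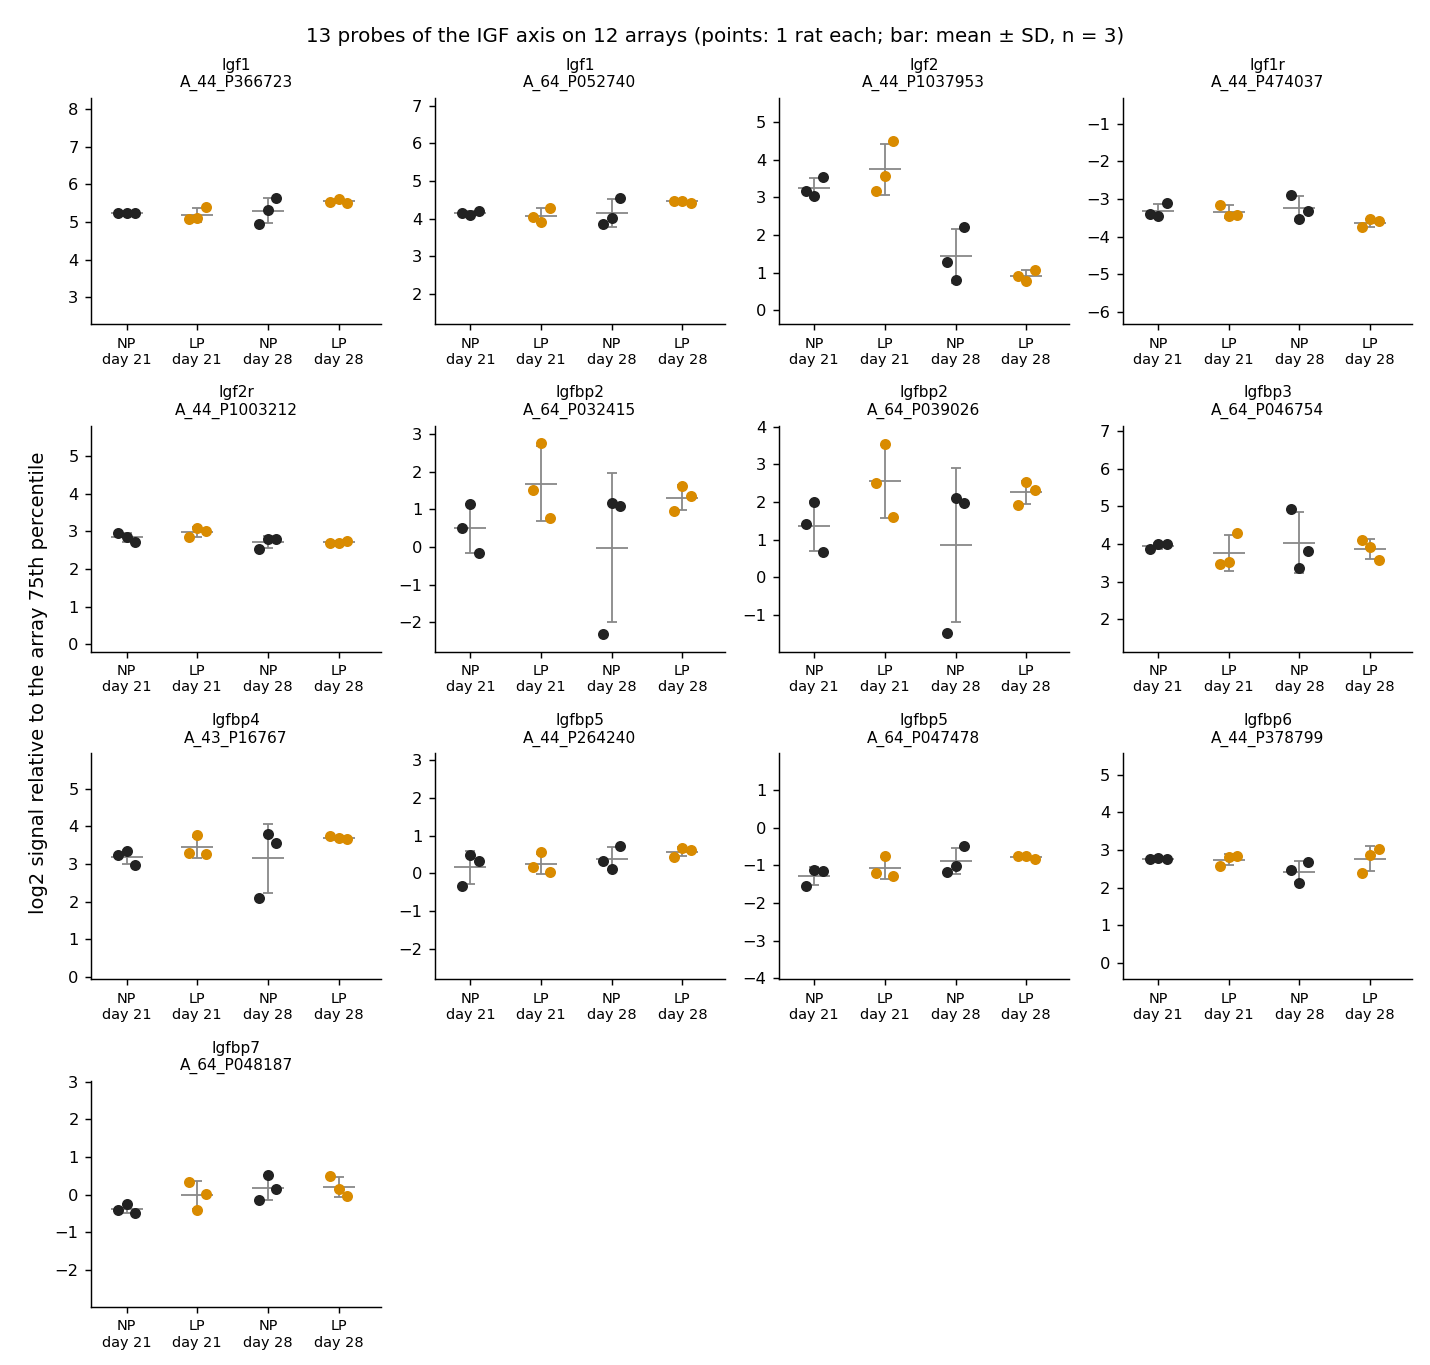
Level of each of the 13 member probes (log2 signal relative to the 75th percentile of the array, every panel with the same span) in each rat; bars are the mean ± SD of 3 rats, NP in black and LP in orange. Igf2 drops between day 21 and day 28 in both diets, and NP rat 4f lies far below the other rats in both Igfbp2 panels and in the Igfbp4 panel.

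Among the binding proteins, Igfbp2 had the largest diet difference and also the widest spread. Its probe A_64_P039026 (chr9:71994131-71994190) was at 1.42, 2.0005 and 0.68 in NP rats of day 21 and at 2.50, 3.55 and 1.60 in LP rats. Among day 28 rats it stood at -1.49, 2.10 and 1.98 in NP rats and at 1.91, 2.52 and 2.33 in LP rats. The highest value was that of LP rat 6a and the lowest that of NP rat 4f, the arrays that stood apart, and the groups overlapped at both days. LP exceeded NP by 1.18 (SE 0.87) at day 21 and by 1.39 (SE 0.87) at day 28, and over both days by 1.29 (95% interval -0.09 to 2.66, unadjusted p = 0.063, limma adjusted p = 0.420). The stop codon probe A_64_P032415 gave 1.19, 1.33 and 1.26 (r = 0.999 between the probes over 12 arrays, a description). Without NP rat 4f the difference of A_64_P039026 at day 28 was 0.22, and that at day 21 kept its size with a smaller SE of 0.48 (unadjusted p = 0.036, limma adjusted p = 0.709). Without LP rat 6a the difference at day 21 was 0.68. Without both arrays, an alternative chosen after seeing the data, the difference over both days was 0.45 (SE 0.28, unadjusted p = 0.148, limma). With the replicate block it was larger, at 1.87 at day 21, 2.08 at day 28 and 1.98 over both days (limma adjusted p = 0.618, 0.647 and 0.324). This block joins the same replicate number across the diets, although NP and LP rats had different dams. Number 5 occurs only in NP and number 7 only in LP rats. The difference over both days thus rests on numbers 4 and 6, and both arrays that stood apart are among them.

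Epithelial and other markers moved with Igfbp2 over the arrays. The mean level of the 8 luminal markers was 0.25, 1.34 and 0.55 in NP rats 4a, 5a and 6a, and 1.43, 2.13 and 0.72 in LP rats 4a, 6a and 7c of day 21. At day 28 it was 0.24, 1.18 and 0.9997 in NP rats and 1.21, 1.43 and 1.22 in LP rats. NP rat 4f had the lowest and LP rat 6a the highest value of this list, as of Igfbp2. Over the 12 arrays Igfbp2 correlated with the mean of the luminal list at r = 0.84 and with that of the basal list at r = 0.94, and with that of the adipocyte list at -0.28. This is a description, as gene and list were read from the same RNA on each array. It also correlated with the proliferation list at r = 0.89, the fibroblast list at 0.78 and the endothelial list at -0.63. Over the 10 arrays without both that stood apart, r was 0.84 for the luminal, 0.79 for the basal, 0.44 for the proliferation, 0.19 for the fibroblast and -0.75 for the endothelial list. The luminal list also had higher medians in LP than in NP, by 0.76 at day 21 and 0.50 at day 28, which were 0.41 without LP rat 6a and 0.19 without NP rat 4f. Of its 8 genes 3 had an unadjusted p under 0.05 over both days (11.9% of all tested probes), all with higher levels in LP and none with an adjusted p under 0.05. For the basal list the medians were 0.80 at day 21 and 0.69 at day 28, and 0.40 and 0.05 without LP rat 6a and NP rat 4f. Of the 8 basal genes 2 had an unadjusted p under 0.05 over both days, higher in LP. At day 28 1 of 8 had one, lower in LP (8.07% of all tested probes). This was Tp63, the brightest probe of the basal list, at 2.07, 2.37 and 1.90 in NP and 1.76, 1.73 and 1.66 in LP rats. Other lists had diet medians away from 0 too. At day 21 they were -2.10 for lymphocyte (-0.36 without LP rat 6a) and -1.49 for muscle markers (-3.64 without LP rat 6a). At day 28 that of proliferation markers was 0.85 (0.16 without NP rat 4f). In these comparisons 0 of 8 lymphocyte, 0 of 8 muscle and 0 of 7 proliferation markers had an unadjusted p under 0.05. The summed luminal signal, relative to the 75th percentile, ran from 14.5 in NP rat 4f to 58.5 in LP rat 6a. The part of epithelial content in the Igfbp2 difference was not tested.

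**Figure D3:**
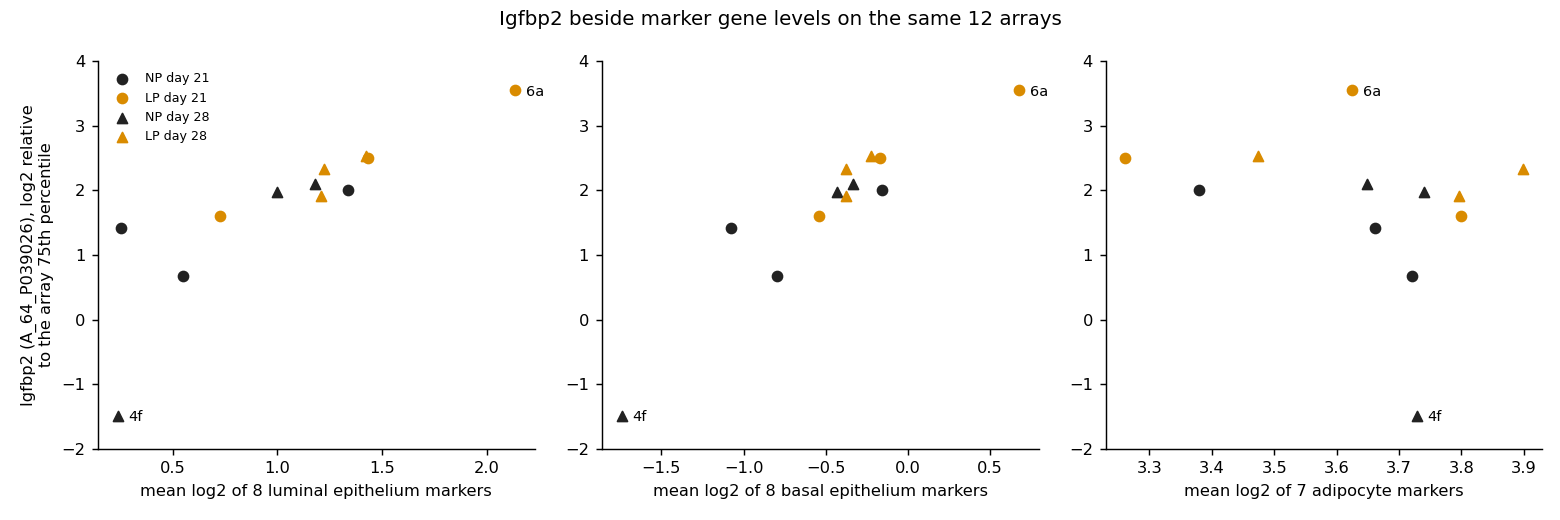
Igfbp2 level (y axis, probe A_64_P039026) against the mean log2 level of 8 luminal, 8 basal and 7 adipocyte markers (x axes) on the same 12 arrays; circles are day 21, triangles day 28, NP black and LP orange. Igfbp2 rises with both epithelial lists, with NP rat 4f and LP rat 6a at the ends, and shows no such order along the adipocyte list.

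Igfbp4, which binds IGF until it is cut by the protease PAPP-A, was at 3.23, 3.34 and 2.97 in NP and 3.29, 3.77 and 3.27 in LP rats of day 21. At day 28 it was at 2.10, 3.79 and 3.56 in NP and 3.74, 3.69 and 3.65 in LP rats. Only NP rat 4f left the range of 2.97 to 3.79. The diet difference was 0.26 at day 21 and 0.54 at day 28 (SE 0.37 for both, limma adjusted p = 0.931 and 0.592), with overlap at both days. It was 0.10 at day 21 without LP rat 6a and 0.017 at day 28 without NP rat 4f, and 0.52 and 0.80 with the replicate block (limma adjusted p = 0.752 and 0.651). That block, as for Igfbp2, sets same-numbered NP and LP rats of different dams together. Igfbp4 moved with much the same lists as Igfbp2 over the 12 arrays (r = 0.81 for basal, 0.79 for proliferation, 0.74 for fibroblast, 0.71 for luminal and -0.71 for endothelial markers, a description). Over the 10 arrays without both that stood apart, r was 0.53, -0.11, 0.15, 0.61 and -0.82 for these lists. The part of the cell mixture in Igfbp4 was not tested.

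Igfbp3, the main carrier of IGF in blood, was at 3.85, 4.00 and 4.00 in NP and 3.47, 3.51 and 4.30 in LP rats of day 21, and at 4.93, 3.35 and 3.82 in NP and 4.11, 3.91 and 3.58 in LP rats of day 28. NP rat 4f had the highest level here, opposite to its Igfbp2 and Igfbp4. The diet difference was -0.19 at day 21 and -0.17 at day 28 (SE 0.36 for both), and without NP rat 4f that at day 28 was 0.28. With 1 array left out, that at day 21 ran from -0.46 (without LP rat 7c) to -0.046 (without LP rat 4a). Without both arrays that stood apart it was -0.064.

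Igfbp5, a binding protein known from the involuting mammary gland, was read by A_44_P264240 and A_64_P047478. The first ran from -0.35 to 0.72 and the second from -1.54 to -0.49 over the 12 arrays. Both were higher at day 28 over both diets, by 0.28 (unadjusted p = 0.129) and 0.33 (unadjusted p = 0.040, limma adjusted p = 0.236), and all groups overlapped. Between the diets the first differed by 0.09 and 0.19 and the second by 0.20 and 0.11 at days 21 and 28. Without LP rat 6a the difference of the second at day 21 was 0.035. With 1 array left out, that of the first at day 28 ran from 0.050 to 0.36.

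Igfbp6, which prefers IGF-2, was at 2.76, 2.79 and 2.76 in NP rats of day 21 and 2.47, 2.12 and 2.68 in those of day 28. These groups did not overlap, and their difference was -0.35 (unadjusted p = 0.086, limma adjusted p = 0.458). In LP rats it was at 2.57, 2.82 and 2.84 at day 21 and at 2.40, 2.88 and 3.03 at day 28, with a day difference of 0.02.

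Igfbp7, a relative with low affinity for IGF, was at -0.40, -0.24 and -0.48 in NP rats of day 21 and at -0.13, 0.53 and 0.15 in those of day 28. These groups did not overlap, with a difference of 0.55 (SE 0.22, unadjusted p = 0.031, limma adjusted p = 0.338). In LP rats it was at 0.34, -0.40 and 0.03 at day 21 and at 0.49, 0.16 and -0.02 at day 28, a difference of 0.22. The Igfbp7 spots were the least even, with a median SD of 0.29 between the 2 spots of an array and a largest one of 1.202.

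Counted over the members, maternal diet gave no call. At day 21, at day 28 and over both days 0 of 13 probes had a limma adjusted p under 0.05, as had 0.0% of all tested probes in each. With an unadjusted p under 0.05 there were 0 of 13 at day 21 (4.36% of all tested probes), 1 at day 28 (8.07%) and 0 over both days (11.9%). With the replicate block there were 4 at day 28, Igf2, Igf1r and both Igfbp2 probes (7.59% of all tested probes), and 2 over both days, both of Igfbp2 (11%). As given above, that block joins replicate numbers across diets with different dams, and over both days it rests on numbers 4 and 6. With 1 array left out there were up to 2 at day 21, 3 at day 28 and 4 over both days. In the settings with these counts, 6%, 14.8% and 11.4% of all tested probes had one. Groups did not overlap for 0 of 13 probes at day 21 (11.5% of all tested probes) and for 0 over both days (1.06%). The median difference of the 13 probes was 0.14 at day 21 and 0.19 at day 28, against 0.01 and -0.05 over all tested probes. The change of the diet difference between the days was called for 0 of 13 probes and 0.0% of all tested probes, with 0 of 13 at an unadjusted p under 0.05 (2.26% of all tested probes). In the other comparisons of diets the intervals leave room for differences: for Igf1 (A_44_P366723) the 95% interval was -0.39 to 0.31 at day 21 and -0.10 to 0.61 at day 28, and for Igfbp3 -1.004 to 0.62 and -0.98 to 0.64.

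Between the days, 0 of 13 probes were called in NP rats, where 0.25% of all tested probes were, and 0 of 13 in LP rats, where 0.0% were. With an unadjusted p under 0.05 there were 2 of 13 in NP rats (12.8% of all tested probes), Igf2 and Igfbp7, and 4 of 13 in LP rats (10.1%), Igf2, Igf2r and both Igf1 probes. Over both diets there were 4 of 13 (19.2%), Igf2 and Igf2r lower and Igfbp7 and Igfbp5 A_64_P047478 higher. Groups did not overlap for 3 of 13 in NP and 5 of 13 in LP rats, beside 18.7% of all tested probes in each. These comparisons share arrays with each other and with the diet comparisons.

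**Figure D4:**
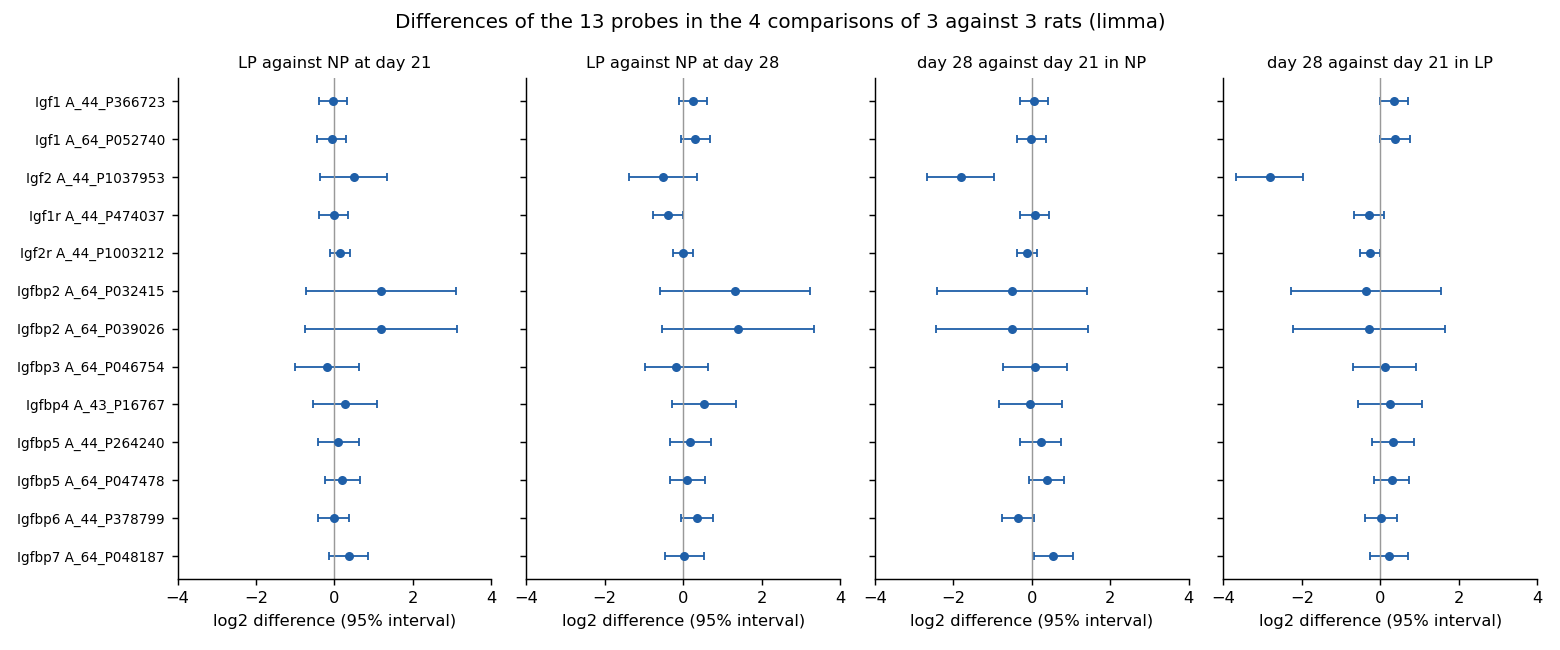
Log2 difference with its 95% interval (limma) of each member probe in the 4 comparisons of 3 against 3 rats; the vertical line is 0. Igf2 is the one member far from 0 in both day comparisons (-1.81 in NP and -2.82 in LP), and the intervals of Igfbp2 are the widest.

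Other genes of the pathway were taken from 5 lists, of which 37 genes were tested. None had a limma adjusted p under 0.05 in any of the 7 comparisons. Between the diets an unadjusted p under 0.05 was found for 1 of 37 at day 21 (4.36% of all tested probes), 1 at day 28 (8.07%) and 0 over both days (11.9%), shares no higher than those over all probes. At day 21 this was Pappa, the protease that cuts IGFBP-4, at a mean level of -4.02 in LP and -4.81 in NP rats (difference 0.79, SE 0.25, unadjusted p = 0.010, limma adjusted p = 0.861), with groups that did not overlap. At day 28 it was Esm1, an endothelial proteoglycan gene grouped with the IGFBP relatives, at -2.19 in LP and -1.36 in NP rats (difference -0.83, SE 0.25, unadjusted p = 0.0074, limma adjusted p = 0.581). On the other day each difference had the opposite sign, -0.07 for Pappa at day 28 and 0.44 for Esm1 at day 21. The change of the diet difference between the days had an unadjusted p under 0.05 for 2 of 37 (2.26% of all tested probes).

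Between the days over both diets, 3 of 37 had an unadjusted p under 0.05 and were higher at day 28, and 8 were lower, beside 19.2% of all tested probes in either direction, and the median difference of the 37 was 0.01, as over all tested probes. Groups of 6 without overlap, given for some genes below, were found for 3.73% of all tested probes. Of 4 tested protease and inhibitor genes, 2 had an unadjusted p under 0.05, both with lower levels at day 28 and groups that did not overlap. These were Stc2 and Stc1, the stanniocalcins, of which STC2 inhibits PAPP-A. Stc2 was at -4.41 at day 28 and -3.74 at day 21 (difference -0.66, limma adjusted p = 0.076). Stc1 was at -3.19 and -2.77 (difference -0.43, limma adjusted p = 0.112). Pappa2 and Adam12 were not found under these names, and Adam28 did not pass the filter.

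Of 17 tested genes of receptor signalling, 4 had an unadjusted p under 0.05 and were lower at day 28, and 0 were higher, a share near the 19.2% of all tested probes. The kinase genes Akt1 and Akt2, which act downstream of the receptor, had groups that did not overlap. Akt1 was at 0.40 at day 28 and 0.80 at day 21 (difference -0.40, limma adjusted p = 0.076). Akt2 was at -2.26 and -1.94 (difference -0.32, limma adjusted p = 0.082). Foxo1 was not found under this name.

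Of 8 growth hormone axis genes, 2 had an unadjusted p under 0.05 and were higher at day 28, and 1 was lower, again beside 19.2% of all tested probes. In NP rats the lower gene, Stat5b, a transcription factor of growth hormone signalling, did not overlap between days, as in 18.7% of all tested probes in each diet (difference -0.32, limma adjusted p = 0.323). In LP rats Socs2, a feedback inhibitor of this signalling, was higher without overlap (0.45, limma adjusted p = 0.371). Of 7 tested IGFBP-related genes 1 had an unadjusted p under 0.05 and was higher over both diets, and 1 was lower, beside the same 19.2%. In LP rats Wisp2, a matricellular gene of the list, was higher without overlap (1.23, limma adjusted p = 0.475). Of the mRNA-binding family that handles Igf2 transcripts only Igf2bp2 was tested, at -1.02 at day 28 and -0.69 at day 21 (difference -0.34, unadjusted p = 0.089). In LP rats the day difference was -0.64 for Pappa and -0.78 for Esm1, without overlap (limma adjusted p = 0.445 and 0.365). In NP rats these genes went the other way. Pappa was 0.23 higher at day 28 (limma adjusted p = 0.750), and the mean of Esm1 was -1.36 at day 28 and -1.85 at day 21.

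**Figure D5:**
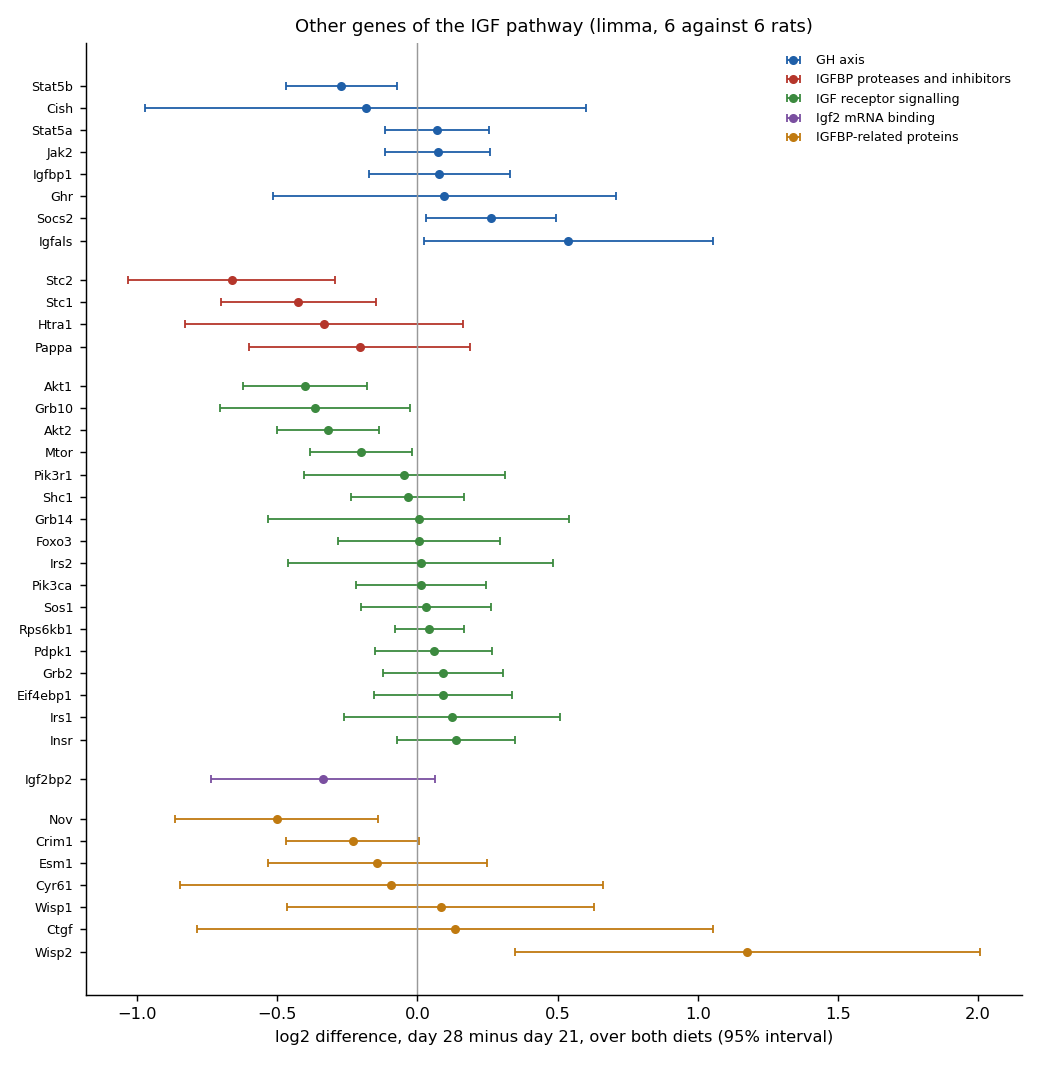
Log2 difference between day 28 and day 21 over both diets with its 95% interval (limma, 6 against 6 rats) for the 37 tested pathway genes, coloured by list. Stc2, Stc1, Akt1 and Akt2 lie below 0 with intervals that leave it out, as do a few others, and none has an adjusted p under 0.05.

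The members that varied most over the 12 arrays were Igf2 (SD 1.31), Igfbp2 (SD 1.23) and Igfbp4 (SD 0.48). Among 19966 probes well above background on all arrays, the genes whose levels ran most like Igf2 were Pygo2, Egfl8 and Fam188b (r = 0.92 for each over 12 arrays). Pygo2, a Wnt pathway cofactor, moved over a far smaller range, from -1.24 to -0.79. The genes most like Igfbp2 were Col2a1, a collagen gene, Mia, and Areg, an EGF receptor ligand of the mammary ducts (r = 0.99, 0.98 and 0.97). Areg was at -5.35 in NP rat 4f and between -2.80 and 0.31 in the others. Most like Igfbp4 were Mup5 and LOC685577, whose family has near-identical copies that a probe may not separate, and the transcript ENSRNOT00000038851 (r = 0.97, 0.96 and 0.97). These correlations are a description, as both genes were read from the same RNA and cell mixture on each array.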

How the data were processed

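Total RNA of 12 rat mammary glands was labelled with Cy3 and hybridised to single-colour Agilent whole rat genome arrays. The deposited scanner files came from Agilent Feature Extraction 10.7.3.1 and hold, per spot, a processed intensity, background-subtracted and detrended within its array and not scaled across arrays. A deposited value table holds the same signal divided by a constant of each array and served as an alternative. The study's Rosetta Resolver model could not be repeated.

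Control spots and outlier spots were left out. Intensities were taken as log2 minus the 75th percentile of gene spots, and the spots of a probe were averaged. Probes well above background (at least 0.5 of spots) on at least 3 arrays, 23209 of 30367, were tested in 1 limma 3.58.1 fit of 4 group means (R 4.3.3), with Benjamini-Hochberg adjustment over these probes and a call at an adjusted p under 0.05, two-sided. The fit was tested on simulated data. With 3 against 3 rats a permutation test cannot go below 0.1 and was not used. No array was dropped or imputed.

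Each list gene was represented by its tested probe of highest mean signal. Pathway genes were named by lowest p, up to 6 per comparison, among those called or, with none called, among those with an unadjusted p under 0.05 and no overlap. Likeness was named as the 3 highest correlations for each of the 3 most variable members, and of each marker list the brightest gene was to be named. Members and lists were chosen with earlier results of these data known, and 1 gene of the receptor signalling list is not reported here. Sequences are those of the array files and RefSeq (GRCr8), in which all 10 genes were found.

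Alternatives were normexp background (offset 50), quantile normalization, testing all probes or those above background on every array, the compared groups alone, a robust eBayes with trend, a fixed or random block on replicate number, slide row as covariate, the deposited table, and each array left out. The fixed block, called the replicate block, joined numbers across the diets, and the random block took the number within a diet.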

Additional observations from a re-analysis of the deposited data

How the results depend on the processing

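Of 48 single-probe differences followed, 34 kept their direction with each of 12 arrays left out and under 11 alternatives, or 10 for differences over both days or both diets and for the change of the diet difference, since the fit of the compared groups alone was made only for differences of 2 groups. All 13 probes were followed between the diets at each day and between the days over both diets. Added to these were members with an unadjusted p under 0.05 between the days within a diet. Igfbp2 between the diets over both days and the Igf2 interaction were added too. All added differences kept their direction, so the share is not that of all member differences. The Igf2 call over both diets was kept under the 10 alternatives fitted to it and with each array left out. The count of called members moved only in LP rats between the days, from 0 to 1 with normexp background (Igf2), and the cause was not tested.

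The other 14 changed sign in at least 1 setting, none of them a call. At day 21, with NP rat 4f of day 28 and LP rat 6a of day 21 left out (chosen after seeing the data), the diet difference was 0.0047 for Igf1 A_44_P366723 and 0.011 for A_64_P052740, 0.037 for Igf1r and -0.057 for Igfbp5 A_44_P264240. Igf1r was 0.018 with normexp and 0.015 with slide row as covariate, and Igfbp5 A_44_P264240 was -0.019 with slide row. At day 28, Igf2r was -0.10 with normexp, -0.022 with quantile normalization, -0.080 with slide row and -0.092 without both arrays, and without both arrays Igfbp3 was 0.28, Igfbp5 A_64_P047478 -0.030 and Igfbp7 -0.13. Between the days over both diets, Igf1r was 0.0036 with normexp, Igfbp2 was 0.40 (A_64_P032415) and 0.44 (A_64_P039026) without both arrays, and Igfbp3 was -0.022 with quantile normalization and -0.19 without both arrays.

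With 1 array left out, the day 21 diet difference ran from -0.15 to 0.021 for Igf1 A_44_P366723, -0.18 to 0.011 for A_64_P052740, -0.12 to 0.079 for Igf1r, -0.16 to 0.26 for Igfbp5 A_44_P264240 and -0.072 to 0.063 for Igfbp6. At day 28 it ran from -0.092 to 0.047 for Igf2r, -0.51 to 0.28 for Igfbp3, -0.030 to 0.30 for Igfbp5 A_64_P047478 and -0.13 to 0.20 for Igfbp7. The day difference over both diets ran from -0.73 to 0.13 and -0.71 to 0.19 for the Igfbp2 probes, -0.13 to 0.27 for Igfbp3 and -0.052 to 0.37 for Igfbp4.

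Replicate numbers recur across groups, and the labels do not say what they share. Deviations of same-numbered arrays correlated between -0.06 and 0.38, so that not every pair was over 0.1, while 10 of 12 arrays correlated best with their own number across days within a diet, a weak hint of pairing from the data and not from the design. Each array had only 3 to choose from, and each pair was counted from both of its arrays, so these are not 12 independent checks. Within a diet, r was 0.03 for number 4 of NP and -0.06 for number 7 of LP rats. With the number within a diet as a random block, Igf2 over both diets was -2.31 (limma adjusted p = 0.0051). With the replicate block, Igf2 over both diets was -2.31 (SE 0.19, limma adjusted p = 0.033), the member calls were as without it, and 209 of all probes were called in place of 421. That count was 271 with normexp, 217 with no filter, 208 without both arrays and between 99 (without NP rat 6a of day 21) and 398 with 1 array left out, and between 286 and 485 under the other 6 alternatives. In NP rats, 58 probes were called between the days, 0 with the replicate block, with no filter, with the compared groups alone and without both arrays, and 36 with slide row, 82 with quantile normalization, 88 with probes above background on all arrays and 91 with trend and robust estimation. With 1 array left out it was between 0 and 31. The count of members with an unadjusted p under 0.05 between the diets ran, with 1 array left out, from 0 to 2 of 13 at day 21 (2.08% to 8.63% of all tested probes), 0 to 3 at day 28 (3.8% to 14.8%) and 0 to 4 over both days (7.46% to 16.8%). Between the days over both diets it ran from 1 to 6 (14.8% to 21%) with 1 array left out. With 3 rats a group, the number of arrays limits what differences could be called.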

Other observations

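Other genes fell between day 21 and day 28 over both diets as well. They were chosen after their values were seen. Nnat, like Igf2 an imprinted gene, fell on 2 of 2 tested probes, by 2.32 and 2.09 on the log2 scale (limma adjusted p = 0.030 and 0.038). Alox15, a lipoxygenase gene, fell by 3.18 (limma adjusted p = 0.0052). Slc4a1, the anion exchanger of the red cell membrane, fell by 2.21, Alas2, the erythroid enzyme of haem synthesis, by 1.83, and Hbb by 1.55 on probe A_44_P306307 (limma adjusted p = 0.0052 for each). Of 6 tested haemoglobin probes 4 were called lower, among them this one, which fell furthest, and 2 were not called, where 1.81% of all tested probes were called. Those not called were Hbb A_64_P028036, which fell by 0.52, and Hba-a2 A_64_P032499, which fell by 0.59 (limma adjusted p = 0.074 and 0.068). In all, 243 probes were called higher and 178 lower at day 28, and 6 other called probes fell at least as far as Igf2. Among these were probes of transcripts named only by an Ensembl number, which fell by 2.48 to 2.74. Imprinted genes as a set were not counted. Day and slide cannot be told apart in any of these.

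Among the marker lists, Retn (resistin of fat cells) rose by 0.69 over both diets (limma adjusted p = 0.038) and Prom1 (a luminal surface marker) fell by 0.46 (limma adjusted p = 0.047), and no other marker was called in the comparison of days. Alb, the brightest probe of the liver list, was at 2.04 at day 28 and 0.39 at day 21 (difference 1.65, limma adjusted p = 0.079). Of the fibroblast list Col1a1, of the endothelial list Kdr, of the macrophage list Lyz2, of the basal list Tp63, of the proliferation list Cdk1 and of the muscle list Mylpf was the brightest probe, which does not rank abundance between genes, and no gene of any marker list was called between the diets.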
